A study of Homo sapiens with 12 samples.

Results

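The response of H3K27ac to dexamethasone was measured in multiple myeloma cells that carry a knockout of CEBPB. Members were chosen by the genotype and treatment in the labels, which gave 6 of the 12 libraries of the series: 3 knockout libraries given 10 µM dexamethasone for 2 h and 3 knockout libraries given DMSO vehicle. The cells of both groups were RPMI 8226, an established human myeloma line, and both groups carried the CEBPB knockout. The 6 scramble control libraries were not used here, so no value compares knockout cells with cells that have C/EBPβ. Chromatin marked by acetylated lysine 27 of histone H3 was cut and released by CUT&RUN, in which an antibody directs a nuclease to the mark, from 100000 cells per assay. The labels do not say whether the knockout was 1 clone or a pool, nor whether libraries came from separate cultures, so p-values measure only the spread between these libraries, which may be technical.

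Dexamethasone is a synthetic glucocorticoid that enters the cell and binds the glucocorticoid receptor, the product of NR3C1. The receptor is released from HSP90 chaperones, moves to the nucleus and binds DNA, mostly at enhancers away from gene starts, where coactivators with acetyltransferase activity raise H3K27ac. Glucocorticoids kill many myeloma cells and are a standard part of treatment. C/EBPβ is a leucine zipper transcription factor that binds enhancers in myeloid and plasma cells and can occupy the same enhancers as the glucocorticoid receptor. H3K27ac marks active promoters and enhancers, and the width of its peaks is a measure neither of the amount of acetylation nor of transcription.

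The deposited peak lists held 46510, 46340 and 54727 peaks in the DMSO libraries and 43487, 50011 and 43656 in the dexamethasone libraries, on chromosomes 1 to 22 and X. Covered length was 58.2 ± 5.5 Mb with DMSO and 54.4 ± 4.0 Mb with dexamethasone (SD, n = 3 each), and the third DMSO library covered the most, 64.5 Mb. None of the 5 library measures (peak number, covered length, median width, median enrichment and the share of covered length at promoters) differed in a two-sided exact permutation test (p = 0.5 for each, and 0.5 after Benjamini-Hochberg adjustment over the 5, where 0.1 is the smallest p that 3 against 3 allows). Read depth cannot be read from peak lists and is unknown. The median plasma cell or myeloma gene had 8.72 kb of peaks within its window, against 3.76 kb for T cell markers, 3.35 kb for myeloid markers, 4.80 kb for mature B cell markers, 3.78 kb for stromal or epithelial markers and 3.17 kb over all genes. The T cell gene BCL11B, the macrophage gene MARCO, the B cell gene CD24 and the collagen genes COL1A2 and COL3A1 had no covered base in any of the 6 libraries.

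After normalization, H3K27ac peaks covered more of the window with dexamethasone for most of the glucocorticoid-induced genes tested. Regions at DDIT4, PER1 and CXCR4 were called higher. The peaks of each library were summed over each gene and 25 kb on both sides, and this covered length was compared between treatments on a log2 scale. Of 50 genes listed as glucocorticoid-induced, 48 had enough coverage to be tested. The list was chosen with earlier results of these data known, so its shares beside those of all genes are only a description. After normalization, 33 (68.8%) had a higher value with dexamethasone and 15 a lower one, where 54.5% of all 16516 genes tested were higher. The median log2 difference was 0.15 against 0.03 over all genes. Without normalization 27 members were higher and 21 lower, with a median of 0.03 against -0.06. The summed deposited coverage of the list overlapped, at 322 to 352 kb with DMSO and 331 to 371 kb with dexamethasone. The normalised values of the groups did not overlap in the higher direction for 15 members (31.2%), against 7.51% of all genes, and in the lower direction for 0, against 5.18%. An unadjusted p under 0.05 was reached by 10 members in the higher direction and 0 in the lower, against 3.25% and 3.7% of all genes. With only genes covered in all 6 libraries, 45 members were tested, 31 higher and 14 lower, and 9 had an unadjusted p under 0.05 in the higher direction. After Benjamini-Hochberg adjustment over all genes in limma, 1 member was called higher and 0 lower, where 0.0121% and 0% of all genes were called. IL1R2, a decoy receptor for interleukin 1, had no covered base in any library. Within 5 kb of the gene start alone, an alternative chosen after seeing the data, the list was even: 20 members higher and 21 lower, with a median of -0.00.

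ZBTB16, which encodes the transcriptional repressor PLZF, had no covered base within its window in any DMSO library and 3.98, 2.67 and 3.36 kb in the dexamethasone libraries (3.34 ± 0.65 kb, SD, n = 3). It was the list's called member (limma adjusted p = 0.033), but it passed the filter on coverage only through the dexamethasone libraries, so the call is only a description, and with a filter of all 6 libraries 0 genes were called. The acetylation lay inside the gene, which spans chr11:114059711-114256770 (GRCh38), 20.1 kb or more from either end of that span. A region at chr11:114178568-114181109 held 2542, 2030 and 1292 bp of peaks with dexamethasone, one at chr11:114159608-114160616 held 430, 334 and 1009 bp, and one at chr11:114079777-114081140 held 1007, 307 and 1058 bp. None of these had a peak in any DMSO library, and none passed as a single region (limma adjusted p of 0.051, 0.53 and 0.60).

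**Figure D1:**
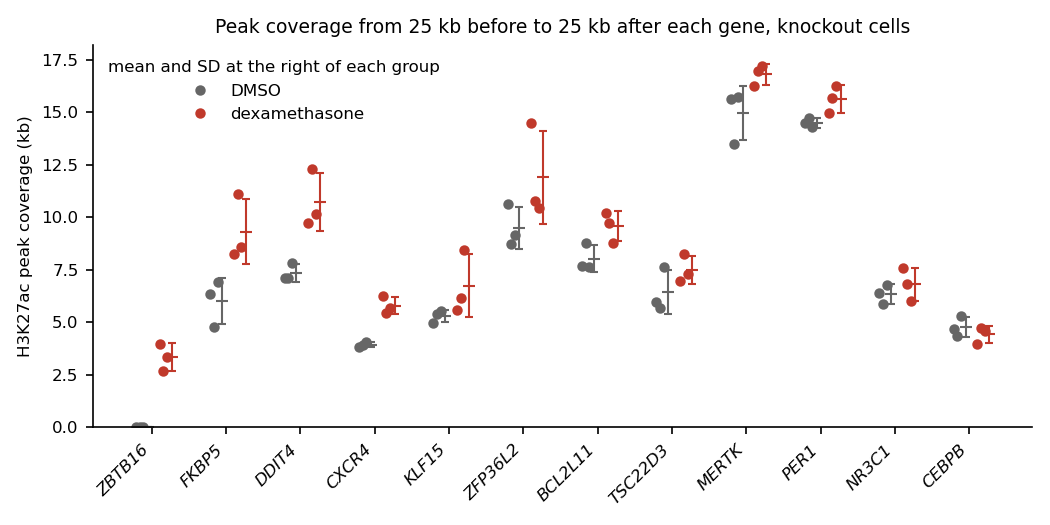
Length covered by H3K27ac peaks (kb) from 25 kb before to 25 kb after 12 genes in each of the 6 CEBPB knockout libraries, with points for libraries and bars for the mean and SD (n = 3 per treatment). ZBTB16 is at 0 kb in every DMSO library and at 2.67 to 3.98 kb with dexamethasone, while CEBPB and NR3C1 overlap between treatments.

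NR3C1, the gene of the receptor, had 6.39, 5.85 and 6.79 kb of peaks with DMSO and 7.59, 6.80 and 6.01 kb with dexamethasone, and the groups overlapped (log2 difference 0.19; limma adjusted p = 0.81). FKBP5, the co-chaperone that lowers the receptor's affinity for hormone, had 6.34, 4.77 and 6.93 kb with DMSO and 8.26, 11.09 and 8.58 kb with dexamethasone. Every dexamethasone library lay above every DMSO library, but the difference of 0.70 ± 0.15 (SE) did not pass (limma adjusted p = 0.51). At FKBP5 (chr6:35573590-35728583), stretches with little or no coverage with DMSO lay in the gene body, 71.1 to 86.1 kb from the nearest given coding start. At chr6:35611021-35611597 peaks covered 517, 570 and 497 bp with dexamethasone and 0 bp in each DMSO library. At chr6:35584021-35584507 they covered 438, 415 and 487 bp against 0 bp. At chr6:35602021-35602827 they covered 497, 807 and 512 bp against 0, 0 and 257 bp. The enrichment of these peaks over background with dexamethasone was 2.91 to 3.66, 3.74 to 4.29 and 4.51 to 5.93, and none of the 3 regions passed the coverage test (limma adjusted p of 0.18, 0.23 and 0.19). The promoter region of FKBP5 had a peak in all 6 libraries, 1810, 1624 and 1895 bp wide with DMSO and 2034, 1984 and 1995 bp with dexamethasone. TSC22D3, which encodes the anti-inflammatory protein GILZ, had 5.95, 5.69 and 7.63 kb with DMSO and 6.97, 8.26 and 7.30 kb with dexamethasone (log2 difference 0.32, and -0.18 within 5 kb of the start; limma adjusted p = 0.65). A region beyond its end, at chrX:107710698-107711939, went from 678, 689 and 776 bp to 1242, 1160 and 1025 bp, without overlap between the groups and without passing (limma adjusted p = 0.23).

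Among stress and metabolic targets of the receptor, DDIT4, which encodes the mTORC1 inhibitor REDD1, had 7.11, 7.11 and 7.84 kb of peaks in its window with DMSO and 9.70, 12.29 and 10.14 kb with dexamethasone (log2 difference 0.62 ± 0.11, SE; limma adjusted p = 0.39). With a window of 5 kb the difference was -0.05. A distal region 9.7 kb before the gene, at chr10:72259956-72264210, held 2447, 2390 and 2460 bp of peaks with DMSO and 4005, 4205 and 4076 bp with dexamethasone, and was called higher (log2 difference 0.73 ± 0.03, SE; limma adjusted p = 0.017). With DMSO this stretch was broken into separate peaks, and with dexamethasone it was joined into 1. KLF15, a regulator of amino acid and glucose metabolism, had 4.96, 5.40 and 5.53 kb with DMSO and 5.60, 6.17 and 8.43 kb with dexamethasone (log2 difference 0.40, and -0.040 within 5 kb of the start). SESN1, which encodes a leucine sensor that restrains mTORC1, had a distal region at chr6:109022705-109023735, inside both SESN1 and ARMC2, with 0 bp in every DMSO library and 718, 852 and 1031 bp with dexamethasone (limma adjusted p = 0.12). MERTK, the receptor that mediates uptake of dying cells, had 15.6, 13.5 and 15.7 kb with DMSO and 16.3, 17.0 and 17.2 kb with dexamethasone (log2 difference 0.28). ZFP36L2, which encodes an mRNA decay factor, had 10.6, 8.72 and 9.16 kb with DMSO and 14.5, 10.8 and 10.4 kb with dexamethasone, with the lowest dexamethasone library below the highest DMSO library in deposited length. None of the windows of KLF15, MERTK and ZFP36L2 passed the test.

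The clock repressor PER1, itself a direct receptor target, had its called region upstream of the start. This region 1.9 kb before the gene, at chr17:8154264-8158921, held 2963, 3136 and 2946 bp of peaks with DMSO and 4607, 4633 and 4656 bp with dexamethasone, and was called higher (log2 difference 0.61 ± 0.05, SE; limma adjusted p = 0.027). The promoter region of PER1, chr17:8150421-8152557, held 1694, 2132 and 1874 bp with DMSO and 1196, 1601 and 1317 bp with dexamethasone and did not pass (log2 difference -0.38; limma adjusted p = 0.59). The whole PER1 window held 14.5 ± 0.23 kb with DMSO and 15.6 ± 0.66 kb with dexamethasone (SD, n = 3 each; log2 difference 0.21), and with only the stronger peaks that difference was -0.20.

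Migration and cell death genes of the list were also among those with higher values. CXCR4, the chemokine receptor that holds plasma cells in the bone marrow, had 3.84, 3.91 and 4.05 kb of peaks in its window with DMSO and 6.24, 5.45 and 5.70 kb with dexamethasone (log2 difference 0.59; limma adjusted p = 0.52). Its promoter region at chr2:136116210-136119240 went from 1912, 1963 and 1879 bp to 2822, 3026 and 2808 bp and was called higher (log2 difference 0.58 ± 0.05, SE; limma adjusted p = 0.041). A distal region 14.0 kb before the gene, at chr2:136132142-136132813, had no peak with DMSO and 667, 454 and 531 bp with dexamethasone (limma adjusted p = 0.21). BCL2L11, which encodes the cell death protein BIM, had 7.68, 8.76 and 7.62 kb with DMSO and 10.2, 9.70 and 8.79 kb with dexamethasone (log2 difference 0.35; limma adjusted p = 0.65), and with only the stronger peaks of each library that difference was -0.78. At the far end of BCL2L11, a region at chr2:111166174-111169537 held 316, 977 and 1072 bp with DMSO and 1702, 2921 and 1884 bp with dexamethasone, which did not pass (limma adjusted p = 0.50).

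Some members had regions with lower values. LPIN1, which encodes a phosphatidate phosphatase of lipid synthesis, has a region over an internal start at chr2:11743926-11751251 that held 7124, 6887 and 7272 bp with DMSO and 5512, 5439 and 5439 bp with dexamethasone, and was called lower (log2 difference -0.34 ± 0.02, SE; limma adjusted p = 0.024). In the same gene, a distal region at chr2:11682195-11684095 had no peak with DMSO and 1667, 321 and 1537 bp with dexamethasone (limma adjusted p = 0.54). TNFAIP3, which encodes the NF-kB inhibitor A20, had a distal region at chr6:137879486-137881750 with 558, 2119 and 645 bp with DMSO and no peak with dexamethasone (limma adjusted p = 0.35). FOXO3, a transcription factor of starvation and cell death, had a region at chr6:108648858-108652104 that went from 2148, 2473 and 1983 bp to 1263, 1263 and 1165 bp (limma adjusted p = 0.14).

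Over all windows of the list, 232 regions were tested, of which 3 were called higher and 1 lower, where 0.0757% and 0.0846% of all 44928 regions were called. Of 154 distal regions tested, 20 (13.0%) had an unadjusted p under 0.05 in the higher direction and 2 (1.30%) in the lower, against 3.93% and 3.55% of all 32348 distal regions. Of 78 promoter regions, 7 (8.97%) were higher by that measure and 2 (2.56%) lower, against 3.02% and 1.5% of all 12580 promoter regions. No promoter region of the list was present in all 3 libraries of one treatment and absent from the other, while of its 154 distal regions 8 appeared in this way with dexamethasone and 1 disappeared. Those 8 entered the test only through the dexamethasone libraries, and the 1 only through the DMSO libraries. They are among the 154 tested, so the distal shares above are only a description. Of all 32348 distal regions 303 appeared and 499 disappeared. In 500 bp bins, each counted as present where peaks covered 250 bp or more, the list's windows held 1063 bins, of which 26 (2.45%) were gained, present in 3 of 3 dexamethasone and 0 of 3 DMSO libraries, and 4 (0.376%) were lost, the reverse. Over the genome 0.465% of 214015 bins were gained and 0.621% lost. The gained bins belonged to 10 of 50 genes: 6 at FKBP5, 4 at ZBTB16, 3 each at PER1, DDIT4 and CXCR4, 2 each at SESN1 and BCL2L11, and 1 each at TSC22D3, ZFP36L2 and MFSD2A.

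**Figure D2:**
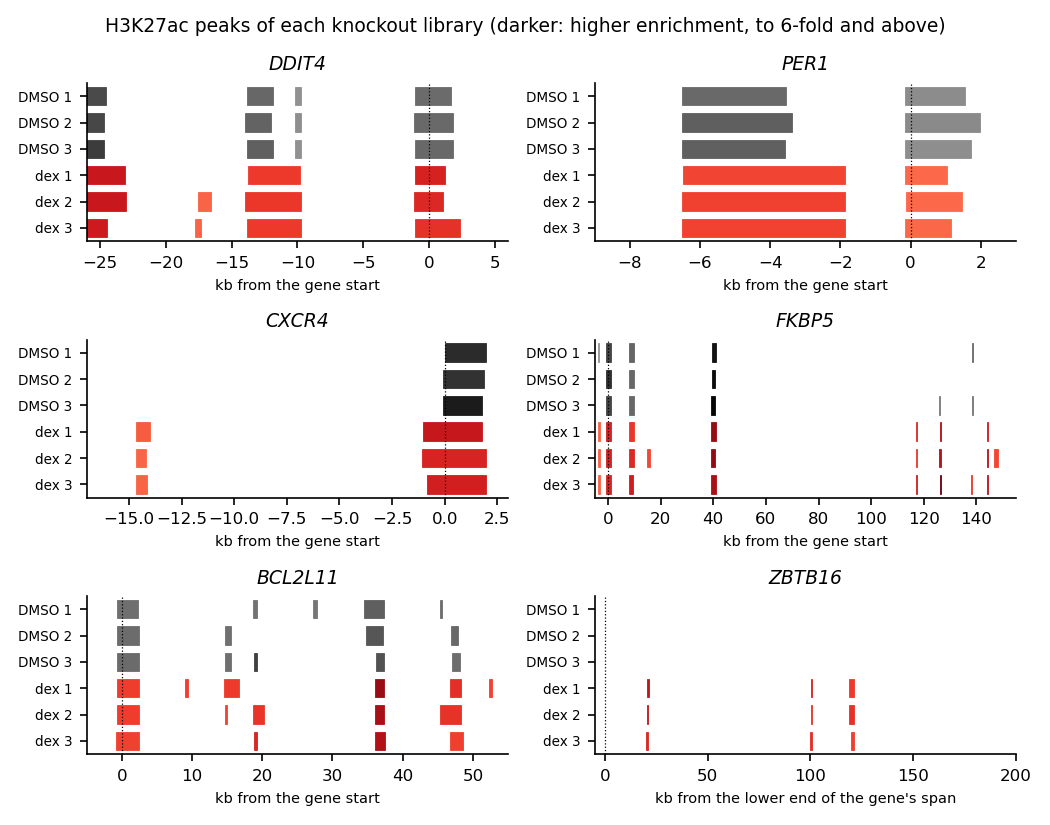
Deposited H3K27ac peaks at 6 glucocorticoid-induced genes, drawn as bars at their distance (kb) from the gene start, or for ZBTB16 from the lower end of its span, in each of the 6 libraries, with darker bars for higher enrichment. In the stretch 9.7 kb before DDIT4, bars that are separate with DMSO are joined in all 3 dexamethasone libraries, between similar outer limits. The bar before PER1 reaches closer to the start in all 3 dexamethasone libraries. Bars inside FKBP5 and ZBTB16 appear in dexamethasone libraries at places empty with DMSO.

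In the called promoter regions of CXCR4 and LPIN1, the bases covered just before a start differed between treatments without overlap, so the 250 bases before that start are shown, from RefSeq on GRCh38, 5′ to 3′ on the strand of the gene. For CXCR4 (chr2:136118150-136118399, minus strand), peaks covered 0, 93 and 93 of these bases with DMSO and all 250 in each dexamethasone library, and capitals mark the 157 bases covered in 3 of 3 dexamethasone and 0 of 3 DMSO libraries. For LPIN1 (chr2:11746382-11746631, plus strand), peaks covered all 250 bases in each DMSO library and 71, 71 and 96 with dexamethasone, and capitals mark the 154 bases covered in 3 of 3 DMSO and 0 of 3 dexamethasone libraries.
CXCR4: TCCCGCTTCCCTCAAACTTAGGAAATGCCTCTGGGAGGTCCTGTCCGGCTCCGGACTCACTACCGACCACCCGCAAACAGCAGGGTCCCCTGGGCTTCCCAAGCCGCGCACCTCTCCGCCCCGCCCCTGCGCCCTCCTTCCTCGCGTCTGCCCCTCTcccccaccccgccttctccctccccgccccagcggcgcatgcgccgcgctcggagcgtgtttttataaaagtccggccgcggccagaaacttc
LPIN1: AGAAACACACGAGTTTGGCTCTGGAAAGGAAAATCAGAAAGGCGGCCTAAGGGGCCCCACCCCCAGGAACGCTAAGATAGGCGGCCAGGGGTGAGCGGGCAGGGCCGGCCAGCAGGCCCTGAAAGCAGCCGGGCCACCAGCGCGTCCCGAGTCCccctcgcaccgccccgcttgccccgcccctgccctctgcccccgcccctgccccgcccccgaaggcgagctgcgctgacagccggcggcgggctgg
The CXCR4 stretch extended away from the start. The LPIN1 gap lay in the part of the 250 bases farthest from the internal start, and bases next to that start stayed covered with dexamethasone.

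Over all genes, 2 were called higher and 0 lower in limma. The second was NPIPB13 (chr16:30222897-30248479), a member of a gene family spread over nearly identical duplications on chromosome 16, which makes the placement of its reads uncertain. It had no covered base with DMSO and 1.74, 1.95 and 1.79 kb with dexamethasone (1.83 ± 0.11 kb, SD, n = 3; limma adjusted p = 0.042). Like ZBTB16, it entered the test only through the dexamethasone libraries. In the lower direction, 611 genes had an unadjusted p under 0.05 (3.7%), and limma without its trend and robust options also called 0. Both calls were lost with a filter of all 6 libraries and when any 1 of the 6 libraries was left out, with the smallest adjusted p over all genes then between 0.087 and 0.35.

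The genes that came closest without passing were of mixed function. GPR171, a lymphocyte receptor for the neuropeptide BigLEN, had 0, 0 and 0.60 kb of peaks with DMSO and 4.53, 2.82 and 3.74 kb with dexamethasone (log2 difference 2.72; limma adjusted p = 0.16). PHACTR3, a phosphatase and actin regulator, had 2.44, 1.17 and 1.37 kb with DMSO and 9.10, 8.87 and 6.74 kb with dexamethasone (limma adjusted p = 0.19). RBPJ, the DNA-binding partner of Notch, had 5.33, 3.90 and 4.80 kb with DMSO and 9.32, 8.72 and 9.33 kb with dexamethasone (log2 difference 1.00; limma adjusted p = 0.33). REL, an NF-kB subunit, had 1.23, 1.01 and 1.08 kb with DMSO and 2.48, 2.79 and 2.02 kb with dexamethasone (log2 difference 0.93; limma adjusted p = 0.36). In each of these genes every dexamethasone library lay above every DMSO library. Among genes with lower values, CD44, an adhesion receptor of plasma cells, had 1.70, 1.79 and 1.65 kb with DMSO and 0, 0.27 and 0.43 kb with dexamethasone (log2 difference -1.63; limma adjusted p = 0.36). LBX1, a developmental homeobox gene, had 1.77, 0.90 and 1.68 kb with DMSO and none with dexamethasone (limma adjusted p = 0.33). LBX1 entered the test only through the DMSO libraries, so its place here is only a description. TIMP1, an inhibitor of matrix proteases, had 3.99, 3.77 and 4.81 kb with DMSO and 1.91, 2.25 and 1.72 kb with dexamethasone (log2 difference -0.85; limma adjusted p = 0.36). The other genes nearest to passing were RAB32, RAB21 and GABRP with higher values, and ACOT7, CPLX1, CDK18, TBC1D5, SLC4A1AP and AMZ1 with lower values, at log2 differences of 0.94 to 1.34 and -0.997 to -0.56. ADGB, at 0 kb in every DMSO library, entered the test only through the dexamethasone libraries. SLC4A3, at 0 kb in every dexamethasone library, entered it only through the DMSO libraries. The places of ADGB and SLC4A3 among these genes are therefore only a description. With only the stronger peaks the sign turned for RAB32 (-0.23), RBPJ (-0.26), TIMP1 (0.26) and AMZ1 (0.16), and within 5 kb of the start for TBC1D5 (0.023) and SLC4A1AP (0.059).

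Single regions gave more calls than whole gene windows. The union of peaks formed 79424 regions, and 44928 with a peak in at least 3 libraries were tested for covered length. limma called 34 higher (0.0757%) and 38 lower (0.0846%) with dexamethasone, while 1651 (3.67%) and 1337 (2.98%) had an unadjusted p under 0.05, and the normalised values of the groups did not overlap in 9.07% and 4.5%. Promoter regions, those within 1 kb of an annotated start, gave 14 higher calls (0.111%) and 7 lower (0.0556%). Distal regions gave 20 higher (0.0618%) and 31 lower (0.0958%). The number of calls differed with the library left out. Leaving out the first DMSO library gave 40 higher and 15 lower calls, of which 16 and 3 were among the calls above. Leaving out the second DMSO library gave 1 and 0. Leaving out the third DMSO library or any 1 dexamethasone library gave 0 in both directions, with a smallest adjusted p between 0.052 and 0.074. Of the 34 and 38 calls, 3 and 15 had no peak in any library of the other treatment. They passed the filter only through the group where they were high, so those calls are only descriptions. With a filter of all 6 libraries, 46 of 30117 regions were called higher and 35 lower, including 29 of the 34 and 22 of the 38.

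**Figure D3:**
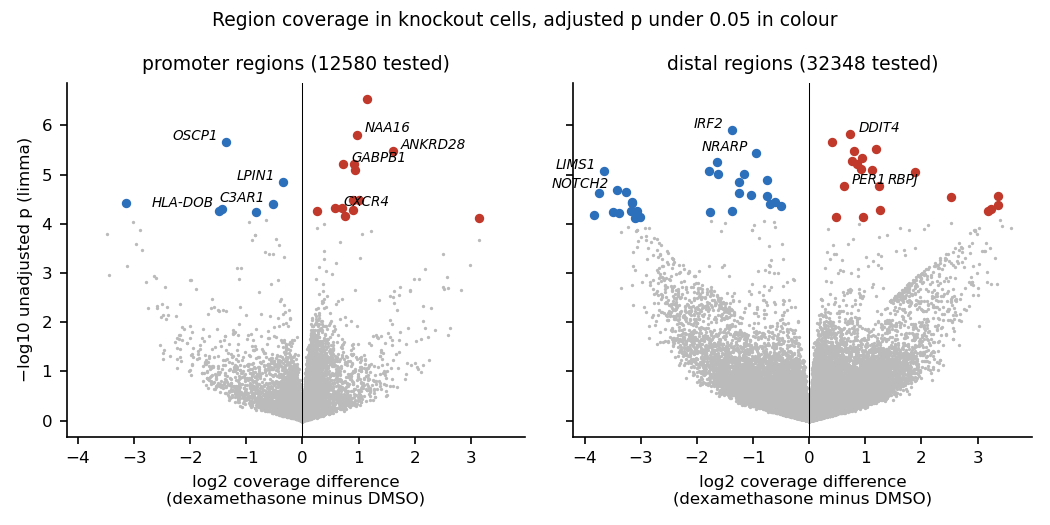
Log2 difference in covered length (dexamethasone minus DMSO) against the -log10 of the unadjusted limma p for 44928 regions, with promoter and distal regions in separate panels and regions with an adjusted p under 0.05 coloured by direction (red higher, blue lower). The 34 higher and 38 lower calls lie at the top of both panels, 14 and 7 of them in the promoter panel.

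The region of smallest p, chr21:35227061-35231529, is 338.4 kb from the nearest coding start, that of RUNX1, and covers the start of the noncoding gene LOC124905015. It held 1950, 1858 and 1893 bp of peaks with DMSO and 4286, 4449 and 4393 bp with dexamethasone (log2 difference 1.15 ± 0.04, SE; limma adjusted p = 0.013). GABPB1, which encodes a subunit of the ETS factor GABP, had a promoter region at chr15:50352559-50355768 that went from 1903, 1842 and 1854 bp to 3161, 3136 and 3160 bp (log2 difference 0.73; limma adjusted p = 0.017). The RBPJ gene body held a called region at chr4:26140124-26142871, with 1094, 804 and 1026 bp with DMSO and 2446, 2560 and 2459 bp with dexamethasone (log2 difference 1.24; limma adjusted p = 0.027). In the lower direction, a region inside IRF2, an interferon regulatory factor, at chr4:184403445-184406292 went from 2650, 2848 and 2789 bp to 838, 949 and 928 bp (log2 difference -1.38 ± 0.06, SE; limma adjusted p = 0.017). A region 4.0 kb from NRARP, a feedback inhibitor of Notch signalling, at chr9:137295537-137298269 went from 2553, 2685 and 2655 bp to 1180, 1319 and 1203 bp (log2 difference -0.94; limma adjusted p = 0.017). A region inside the Notch receptor gene NOTCH2, chr1:119935737-119938715, held peaks in every DMSO library and in no dexamethasone library. It entered the test only through the DMSO libraries.

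ANKRD28, a scaffold subunit of a protein phosphatase, had a promoter region at chr3:15794406-15798257 that went from 1267, 1132 and 1068 bp to 3852, 3795 and 3847 bp (log2 difference 1.61 ± 0.09, SE; limma adjusted p = 0.017). The region over the start of NAA16, an N-terminal acetyltransferase subunit, which also covers that of MTRF1, went from 1409, 1371 and 1405 bp to 2835, 2843 and 2823 bp (chr13:41310997-41313839; log2 difference 0.96). In the lower direction, the region over OSCP1 and near MRPS15, a mitochondrial ribosomal protein gene, went from 2136, 2065 and 2261 bp to 685, 722 and 644 bp (chr1:36448695-36450955; log2 difference -1.37). LIMS1, an adaptor of integrin adhesions, had a region inside the gene at chr2:108612775-108615986 with 2392, 3153 and 2305 bp with DMSO and no peak in any dexamethasone library. That region was tested only through the DMSO libraries. C3AR1, the receptor for complement C3a, had a promoter region at chr12:8064479-8067179 that went from 2617, 2664 and 2647 bp to 1725, 1720 and 1720 bp (log2 difference -0.53; limma adjusted p = 0.040). Also among the 10 regions of smallest p were those near SMYD3, FDFT1, CROCC, PRKCA and MFSD1 in the higher direction and H2BC5, LRRC74A, SNX13, PDE4D and CBR1 in the lower. When all libraries were trimmed to equal covered length, the SMYD3 region turned to a log2 difference of -1.02.

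Most called regions were existing peaks that changed width rather than peaks that came or went. Of the 34 called higher, 23 had a shorter peak in the DMSO libraries, 6 were split there, 3 were absent from them and 2 were absent from some of them. Of the 38 called lower, 20 were shorter with dexamethasone, 2 were split, 15 were absent and 1 was absent from some libraries. Enrichment, the deposited ratio of a peak's signal to background, mostly moved against width. Each peak has 1 enrichment for its whole length, so enrichment and width are not independent measures. The called regions were picked by covered length, so the shares with opposite signs are only a description. Where a library had more than 1 peak in a region, the highest value was taken. Of the 29 regions called higher with a peak in all 6 libraries, 26 had a lower enrichment with dexamethasone and 3 a higher one (median log2 difference -0.13). Of the 22 called lower with a peak in all 6, 18 had a higher enrichment and 4 a lower one (median 0.14). At DDIT4 the highest enrichment went from 3.17, 3.30 and 3.40 to 2.85, 2.92 and 2.83. There each DMSO library had 2 peaks, the lower at 1.87, 1.97 and 1.87, and each dexamethasone library had 1 joined peak. The values at DDIT4 thus compare the higher of 2 peaks with a joined one. Enrichment at PER1 went from 3.09, 3.44 and 3.40 to 2.57, 2.66 and 2.65, and at CXCR4 from 4.78, 4.61 and 5.21 to 4.01, 3.49 and 3.66. Over all 30117 regions with a peak in every library, coverage and enrichment had opposite signs in 60.7%. Among the 1460 of them with an unadjusted coverage p under 0.05, this was 75.3%, with 89.9% at promoters and 69.0% at distal positions.

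**Figure D4:**
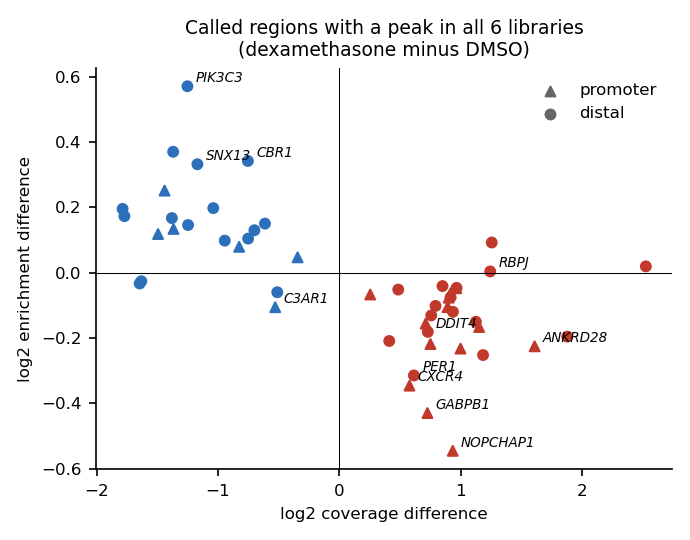
Log2 difference in enrichment against log2 difference in covered length (dexamethasone minus DMSO) for the called regions with a peak in all 6 libraries, red for those called higher by coverage and blue for those called lower, triangles for promoter and circles for distal regions. Of the 29 regions called higher by coverage, 26 lie below 0 on the enrichment axis, and of the 22 called lower, 18 lie above it.

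No region passed on enrichment itself. In limma 0 of 30117 regions were called higher (0%) and 0 lower (0%), the smallest adjusted p was 0.28, and limma without its trend and robust options also called 0. An unadjusted p under 0.05 was reached by 1367 regions in the higher direction (4.54%) and 1269 in the lower (4.21%), and the groups did not overlap in 6.94% and 7.89%. The median log2 difference was -0.02 at promoter regions, of which 6856 were lower and 4421 higher, and 0.01 at distal regions, of which 10154 were higher and 8686 lower. The region of smallest p lay inside NUDT13, a nudix hydrolase gene, at chr10:73117947-73119122, with an enrichment of 3.12, 2.86 and 2.56 with DMSO and 5.65, 5.07 and 5.40 with dexamethasone (log2 difference 0.96; limma adjusted p = 0.28). Near SPAG4 it went from 2.11, 2.29 and 2.06 to 3.05, 3.06 and 2.95, and at the promoter of TRIM58, a ubiquitin ligase of red cell maturation, from 6.08, 6.53 and 6.58 to 4.77, 4.29 and 4.47. In these 3 regions the groups did not overlap.

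Over the genome, lost bins outnumbered gained bins. Of 214015 bins present in any library, 996 were gained, 1330 were lost (1.34 lost per gained) and 62766 were present in all 6 libraries. At promoters 142 were gained and 176 lost, in gene bodies 482 and 764, and between genes 372 and 390. Trimmed to equal covered length, the libraries gave 1025 gained and 996 lost bins while the mean covered length as deposited was larger with DMSO. Leaving out 1 library gave between 1521 and 2744 gained and between 2176 and 4556 lost. Fewer libraries loosen the rule, so neither count could fall. The number lost per gained then ran from 0.79 without the third dexamethasone library (0.84 without the first) to 2.75 without the second DMSO library (2.08 without the first). Without a DMSO library a lost bin needs presence in fewer libraries, and without a dexamethasone library a gained bin does. The ratio therefore depends on the rule as well as on the library. The peaks in gained bins had median enrichments of 3.28, 3.27 and 3.33 in the dexamethasone libraries and those in lost bins 2.93, 3.04 and 2.92 in the DMSO libraries, against 3.97 to 4.18 for bins present in all 6. Adjoining bins formed 823 gained and 1075 lost runs, most of a single bin. The longest gained run, chr1:40389501-40392500 inside SMAP2, an ARF GTPase-activating protein gene, held 2787, 2788 and 2854 bp of peaks with dexamethasone and 0, 60 and 0 bp with DMSO. The longest lost run, chr18:39943501-39946500, lay between genes, 2008.7 kb from the nearest coding start. A lost run 0.9 kb from CCL17, a chemokine gene, at chr16:57417001-57419000 went from 1969, 1992 and 2000 bp with DMSO to 0, 0 and 17 bp. Other long runs were gained near ANKRD28, SMYD3, POTEB3, NPIPB13, TAF1B, RUNX1, LRP12, SESN2 and FAAH, and lost near LIMS1, TSNARE1, SLC6A9, NOTCH2, POTEG, PGS1, UQCRFS1 and ATP6V1C2. POTEB3, POTEG and NPIPB13 belong to duplicated families, so reads there may be shared between copies.

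Gene lists outside the glucocorticoid targets had medians of -0.06 to 0.07 apart from markers of other cell types, and no member of them was called by gene coverage. NF-kB and inflammatory genes, which glucocorticoids repress in many cells, had 13 members higher and 19 lower (median log2 difference -0.06). REL, given above, is a member, and NFKB1 had 2.29, 1.70 and 2.64 kb with DMSO and 2.77, 4.37 and 3.68 kb with dexamethasone (log2 difference 0.67). RELB, a subunit of the alternative NF-kB pathway, had 13.6, 13.2 and 16.2 kb with DMSO and 11.2, 9.26 and 10.2 kb with dexamethasone (log2 difference -0.35, and 0.32 with only the stronger peaks). The receptor with its chaperones and coregulators had 20 members higher and 12 lower (median 0.04). NRIP1, a nuclear receptor corepressor gene, had 0.85, 1.27 and 0.87 kb with DMSO and 0.47, 0.64 and 0.47 kb with dexamethasone, without overlap and without passing (log2 difference -0.44, and 0.16 with only the stronger peaks; limma adjusted p = 0.74).

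Plasma cell and myeloma genes had 15 members higher and 17 lower (median -0.01). XBP1, the transcription factor of the secretory program, had 8.47, 9.40 and 8.18 kb with DMSO and 10.8, 10.2 and 9.89 kb with dexamethasone (log2 difference 0.34, and -0.029 with only the stronger peaks). TNFRSF17, which encodes the myeloma surface antigen BCMA, had 8.15, 10.6 and 9.89 kb with DMSO and 6.40, 6.35 and 7.03 kb with dexamethasone (log2 difference -0.38, and 0.066 with a window of 5 kb). In both genes the groups did not overlap and the test was not passed (limma adjusted p = 0.65 for each). The 7 C/EBP family genes had 3 higher and 4 lower values (median -0.00). CEBPB had 4.66, 4.36 and 5.29 kb with DMSO and 3.97, 4.73 and 4.59 kb with dexamethasone (log2 difference -0.00). Acetylation around a gene does not check whether its coding sequence was disrupted, so these lists do not test the knockout.

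The BCL2 family had 10 members higher and 5 lower (median 0.06), and unfolded protein response genes had 15 and 9 (median 0.07), and of 142 regions in their windows 0 were called higher and 2 lower, where 0.0846% of all regions were called lower. Immediate early and AP-1 genes had 11 and 11 (median 0.02). Among them FOSL2, an AP-1 subunit, had 5.81, 9.48 and 9.29 kb with DMSO and 3.92, 6.27 and 3.24 kb with dexamethasone (log2 difference -0.72). Cell cycle genes had 14 and 12 (median 0.01), and AURKA, a mitotic kinase, had 4.80, 3.79 and 4.52 kb with DMSO and 2.41, 3.00 and 2.14 kb with dexamethasone (log2 difference -0.62, and 0.099 with only the stronger peaks; limma adjusted p = 0.52). Circadian clock genes, a list that includes PER1, had 8 and 10 (median -0.02). CRY2, a clock repressor, had 9.51, 6.98 and 7.95 kb with DMSO and 3.95, 3.80 and 4.44 kb with dexamethasone (log2 difference -0.82 ± 0.17, SE, and 0.12 with only the stronger peaks; limma adjusted p = 0.51). Housekeeping genes had 12 and 12 (median 0.02).

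Markers of other cell types were few but some medians lay as far from 0 as that of the glucocorticoid-induced genes. Of 9 stromal or epithelial markers tested, 7 had a higher value and 2 a lower one (median 0.17). The normalised values of the groups did not overlap for 3 in the higher direction (33.3%) and 1 in the lower (11.1%). Over all genes this held for 7.51% and 5.18%. The 3 in the higher direction were KRT8, KRT18 and PECAM1. The windows of the adjoining genes KRT8 and KRT18 share peaks, so they are not separate observations. The summed coverage of the list was 56.8 to 62.8 kb with DMSO and 58.9 to 63.3 kb with dexamethasone, with COL1A2 and COL3A1 at 0 throughout. T cell markers had 4 of 13 higher and 9 lower (median -0.16), and their summed coverage was 74.2 to 91.4 kb with DMSO and 64.1 to 82.0 kb with dexamethasone. Myeloid markers had 6 higher and 7 lower (median -0.06) and mature B cell markers 7 and 6 (median 0.00). The part of other cells in the values of the glucocorticoid-induced list was not tested.

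**Figure D5:**
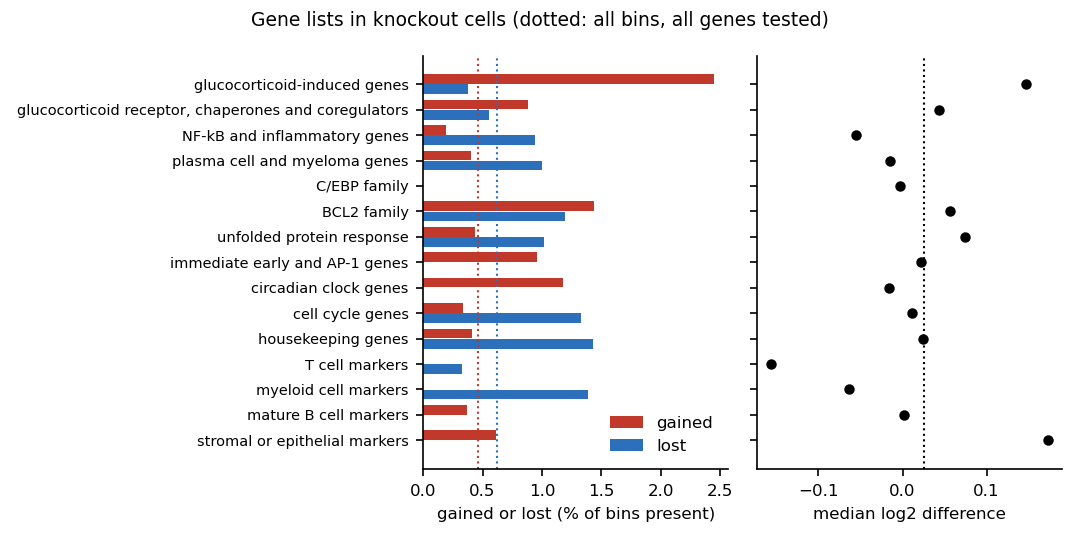
For each gene list and for all genes, the percentage of 500 bp bins in the gene windows that were gained and lost with dexamethasone, and the median log2 difference in covered length, with dotted lines for all bins and all genes. Glucocorticoid-induced genes have 2.45% of their bins gained and 0.376% lost, against 0.465% and 0.621% of all bins.

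A set of 4 motifs was searched in the 250 bases before each start that lay inside a called region, on both strands and with RefSeq sequence on GRCh38. The palindromic glucocorticoid response element was found before 0.328% of all 34789 starts, before 0 of 19 in regions called higher and before 0 of 4 in regions called lower. The AP-1 motif TGANTCA was found before 6.55% of all starts, 3 of 19 and 1 of 4. The C/EBP motif TTGCGCAA was found before 0.132% of all starts and none of the 19 or 4, and the C/EBP with ATF motif TTGCATCA before 0.773%, 1 of 19 (IARS1, the isoleucyl-tRNA synthetase gene) and 0 of 4. The AP-1 match stood before starts in regions called in both directions. Among them were GABPB1 (chr15:50355199-50355448, minus strand) and NAA16 (chr13:41311017-41311266, plus strand) in regions called higher and C3AR1 (chr12:8066360-8066609, minus strand) in a region called lower. Capitals mark the match, and all 250 bases of each were covered by peaks in all 6 libraries.
GABPB1: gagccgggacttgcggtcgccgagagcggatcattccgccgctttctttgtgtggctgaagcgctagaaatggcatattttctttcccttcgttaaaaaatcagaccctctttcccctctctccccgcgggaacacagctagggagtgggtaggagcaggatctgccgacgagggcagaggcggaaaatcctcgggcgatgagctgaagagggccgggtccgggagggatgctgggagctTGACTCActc
NAA16: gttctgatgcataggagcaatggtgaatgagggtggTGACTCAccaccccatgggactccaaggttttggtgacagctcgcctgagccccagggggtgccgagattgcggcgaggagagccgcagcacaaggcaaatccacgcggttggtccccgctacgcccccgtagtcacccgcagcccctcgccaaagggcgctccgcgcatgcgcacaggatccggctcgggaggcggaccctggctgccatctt
C3AR1: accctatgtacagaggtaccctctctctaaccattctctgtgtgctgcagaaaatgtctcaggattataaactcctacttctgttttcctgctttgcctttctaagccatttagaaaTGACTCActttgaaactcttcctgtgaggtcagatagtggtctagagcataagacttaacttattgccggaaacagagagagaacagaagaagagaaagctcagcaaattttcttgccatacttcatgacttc
A match in this window is a string of letters and does not show that a factor was bound.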

How the data were processed

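H3K27ac CUT&RUN peak lists of 6 CEBPB knockout RPMI 8226 libraries were analysed. The submitters' processing notes name Bowtie2 2.4.2, MACS3 3.0 and hg38, with no role or order, and a control library is not given in the sources used here. The authors deposited 1 broad peak list per library. The deposited value of each peak, in column 7, is a ratio of its signal to background and is called enrichment. Deposited start and end are 0-based positions (recorded as other) and are printed 1-based. The broad peak format gives 1 enrichment for a whole peak, so a wide peak and a narrow one are not measured over the same length.

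Positions were joined to RefSeq tables on GRCh38. Covered base pairs were summed over protein-coding genes with 25 kb on both sides and over merged regions, increased by 500 bp for genes and 200 bp for regions, log2-transformed and quantile-normalised over the 6 libraries. A log2 difference on this scale understates the change of short stretches. limma 3.58.1 (R 4.3.3, trend and robust) was applied to features covered in at least 3 libraries, or in all 6 for enrichment, with Benjamini-Hochberg adjustment and a threshold of 0.05. The scripts were tested on simulated data. Other steps and figures used Python 3.11.15 with SciPy 1.17.1, pandas 2.3.3, Matplotlib 3.10.9 and NumPy 2.4.6. A start was given for 15811 of 19970 genes, and both ends of the span were used for the other 4159.

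Genes were named by rule: those called, or else the 10 of smallest p per direction whose groups do not overlap, CEBPB and NR3C1, up to 3 members of smallest p per list, every glucocorticoid-induced member whose groups do not overlap, the 10 regions of smallest p per direction and the 10 longest runs per direction. Called regions near the listed genes, and a few others given for their known function, were named after their values were seen. The members and gene lists were chosen with earlier results of these data known. Alternatives changed the window, offset, normalization, filter, peak strength, covered length, bin size, replicate block and the libraries used. No genome was used, so the planned motif search in bins was not run. Some genes that the rule names are not reported here.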

Additional observations from a re-analysis of the deposited data

How the results depend on the processing

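Peak lists limit every result: read depth is unknown, a peak is present or absent by the authors' threshold, and 3 libraries per group leave 4 residual degrees of freedom. Of the alternative values for named genes, 986 kept their direction and side of the threshold, 37 reversed, 19 fell below the threshold and 7 passed it. Of those for called regions, 227 held, 530 kept their direction without passing and 5 reversed. All 220 values for named enrichment regions held. The cause of these changes was not tested. Removing normalization moved the median of all genes from 0.03 to -0.06.

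Gene calls (2 higher, 0 lower) were 1 and 1 with 5 kb windows, 6 higher with 100 kb windows, 2 and 10 with the stronger peaks of each library, 1 higher with an offset of 100 bp, 0 with one of 2000 bp, 1 and 1 without a filter, 0 with a filter of all 6 libraries (the called genes had no DMSO coverage), and 13 and 7 within 5 kb of the start, an alternative chosen after seeing the data. Leaving out 1 library gave 0 to 0 calls in each direction. Region calls were 21 higher and 16 lower with an offset of 50 bp and 55 and 74 without normalization. Leaving out 1 library gave 0 to 40 higher and 0 to 15 lower.

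Same-numbered libraries did not deviate together (correlations 0.03, -0.04 and -0.07), and differently numbered ones had correlations of -0.08 to 0.11. The labels do not say whether the numbers pair the libraries. These correlations cannot decide it, because a shared culture or preparation need not show in peak coverage. With a replicate block, 0 genes, 0 regions and 0 enrichment values were called, at 2 residual degrees of freedom.

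Gained and lost bins were 2623 and 3332 at 200 bp, 473 and 587 at 1000 bp and 482 and 763 with stronger peaks, and 810 were lost when whole bins had to be covered. Leaving out 1 library gave 1521 to 2744 gained and 2176 to 4556 lost. At glucocorticoid-induced genes, gained and lost bins were 12 and 7 for whole bins, 58 and 15 at 200 bp and 10 and 0 with stronger peaks, with 10 gained at 1000 bp, 8 lost at any covered base and 1 lost at equal covered length. Leaving out 1 library gave 28 to 38 gained and 8 to 15 lost, so gains exceeded losses under each of these settings. Members with a higher value numbered 27 to 37 of 43 to 50 tested in the gene windows, and 20 of 41 within 5 kb of the start.

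The difference in median enrichment between groups (0.074) turned to -0.031 with stronger peaks and ranged from -0.0061 to 0.14 with 1 library left out. With stronger peaks, the log2 difference turned for RAB32 (-0.23), RBPJ (-0.26), TIMP1 (0.26), AMZ1 (0.16), PER1 (-0.20), KLF6 (-0.22), FOXO1 (-0.40), ISG20 (-1.08), BCL2L11 (-0.78), NRIP1 (0.16), RELB (0.32), XBP1 (-0.029), CEBPG (0.11), PMAIP1 (-0.066), IER5 (-0.042), CRY2 (0.12) and AURKA (0.10). With 5 kb windows it turned for CEBPB (0.010), DDIT4 (-0.049), RELB (0.090), TNFRSF17 (0.066), CEBPG (0.093) and IER2 (0.091), and with 100 kb windows for CEBPE (-0.27). Within 5 kb of the start it turned for TBC1D5 (0.023), SLC4A1AP (0.059), DDIT4 (-0.12), TSC22D3 (-0.18), KLF15 (-0.040), KLF6 (-0.0062), CEBPG (0.055), PMAIP1 (-0.026), EIF2AK3 (-0.024) and IER2 (0.013). For CEBPB, near 0 throughout, it ranged from -0.055 to 0.044 with 1 library left out. At equal covered length, it turned for the called regions near SMYD3 (-1.02), NPC1 (-0.40), NOPCHAP1 (-0.33), GOLGA5 (1.12) and TBC1D14 (2.45).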
